A study of Homo sapiens with 4 samples.

Results

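The 7 genes described here encode the endothelin system: the ligand precursors EDN1, EDN2 and EDN3, the receptors EDNRA and EDNRB, and the converting enzymes ECE1 and ECE2. They were taken by symbol from a table of 25690 genes, and all 7 were found, each in 1 row. The family was selected on the measured differences of its members between the genotypes. RNA was sequenced from H9, a human embryonic stem cell line, at day 7 of a culture that the series calls non-neural ectoderm, the ectoderm outside the neural plate. There were 2 libraries with the genotype label TFAP2A knockout and 2 wild-type (WT) libraries, all of the same cell line, source and day. The titles of the knockout libraries name TFAP2C instead, whereas their column names in the deposited counts read 2AKO, as the genotype label does. The labels used here state no clone, guide or differentiation protocol, so whether the knockout libraries come from 1 clone is not known. Separate cultures are not stated either, so errors and p-values measure the spread between libraries, which may be technical.

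Endothelins are short secreted peptides. Each is cut out of a longer precursor, first by furin-like proprotein convertases and then by an endothelin converting enzyme, a membrane metallopeptidase. EDNRA, the endothelin A receptor, prefers endothelin 1 and endothelin 2, whereas EDNRB, the endothelin B receptor, binds all of the peptides alike, and both signal through G proteins. In mouse and human development the EDN1 and EDNRA pair patterns the lower jaw, and the EDN3 and EDNRB pair is needed by the neural crest cells that become melanocytes and the neurons of the gut.

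The coding stretch of each mature peptide is shown because the ligand genes differed in opposite directions and their reads have to be told apart. The sequences were read from GENCODE v29 transcripts (GRCh38), lie in exon 2 of each transcript, and are written 5′ to 3′ on the coding strand, with capitals at the bases that are not the same in all 3 genes. They are at chr6:12292433-12292495 (plus strand) for EDN1, chr1:41484061-41484123 (minus strand) for EDN2 and chr20:59301646-59301708 (plus strand) for EDN3. The converting enzymes cut directly after the last codon printed.
EDN1: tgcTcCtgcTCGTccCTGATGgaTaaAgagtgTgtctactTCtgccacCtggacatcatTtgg
EDN2: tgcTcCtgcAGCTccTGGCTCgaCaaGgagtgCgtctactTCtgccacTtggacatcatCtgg
EDN3: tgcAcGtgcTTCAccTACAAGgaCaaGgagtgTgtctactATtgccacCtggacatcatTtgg
Of 63 bases, 13 differed between EDN1 and EDN3, 12 between EDN1 and EDN2, and 15 between EDN2 and EDN3, so the genes can be told apart by sequence even here.

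Counts per library summed to 19305867.5 and 21797850.5 in the knockout libraries and to 17945210 and 17838204 in WT. Levels are given as CPM, the count divided by the TMM-scaled library size in units of 1e6 counts. An upper limit of 3 counts for a gene at 0 comes to 0.137 to 0.170 CPM per library and covers counting error only. Transcripts of TFAP2A were still present, with 133 and 121 CPM in the knockout libraries against 171 and 198 CPM in WT, and TFAP2C had 8.89 and 5.77 CPM in the knockout libraries against 27.5 and 30.6 CPM in WT, so the counts do not settle the genotype label. Markers of non-neural ectoderm were present in both genotypes, with a summed level over 13 genes of 2674.2 and 2574.3 CPM in the knockout libraries against 3597.3 and 3897.6 CPM in WT. Over all 15643 genes with enough counts to test, 44.2% were called different between the genotypes (adjusted p under 0.05, edgeR's quasi-likelihood test), 21.9% higher and 22.3% lower in the knockout libraries, and the median log2 fold change was 0.00.

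Of the 7 members, 6 had enough counts to be tested, among them the row named ECE2, whose position is that of another gene (given with its values). Among these 1 was called higher (EDN3) and 3 lower (EDN1, EDNRB and ECE1) in the knockout libraries. The members were chosen with this comparison already known, so nothing is read from that count, and their differences are described without p-values. The libraries of the genotypes did not overlap for 2 members that were higher in the knockout libraries (EDN3 and the row named ECE2) and 4 that were lower (EDN1, EDNRA, EDNRB and ECE1), beside 36.6% of all genes in each direction. EDN1 passed the filter on low counts through the WT libraries, where it is high, and EDN3 with the help of the knockout libraries, where it is high.

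**Figure D1:**
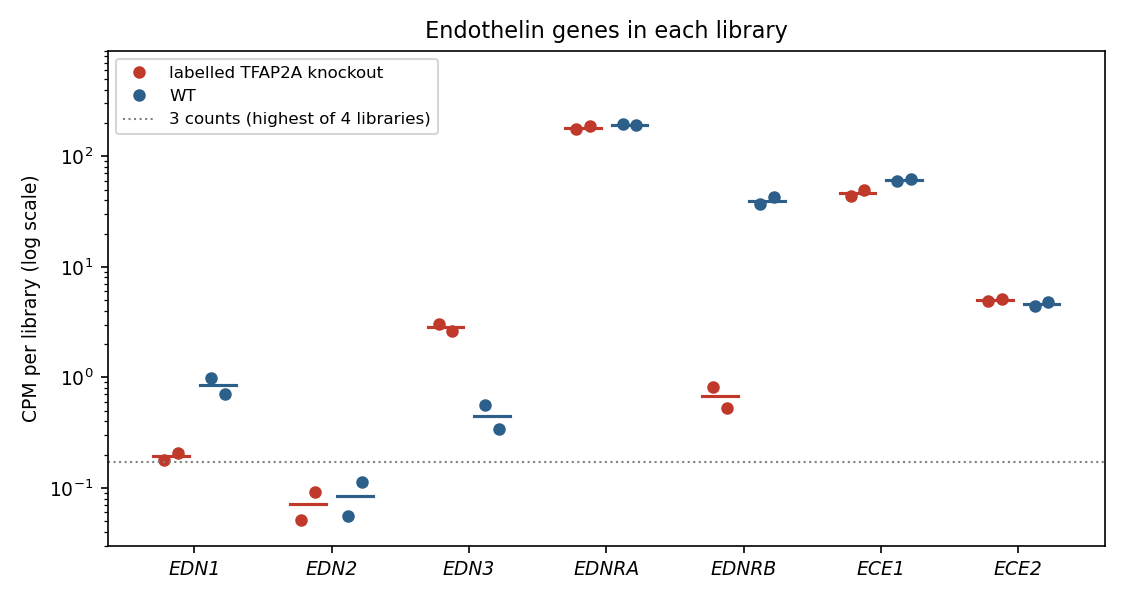
Level of each endothelin gene in CPM (log axis) in the 2 libraries labelled TFAP2A knockout (red, left) and the 2 WT libraries (blue, right); points are libraries, bars are means, and the dotted line is 3 counts in the library where these weigh most. EDNRB is the member set furthest apart, at 0.819 and 0.527 CPM in the knockout libraries and 36.9 and 42.5 CPM in WT, while the EDNRA points of both genotypes lie between 175 and 195 CPM.

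EDNRB was the member with the largest difference. Its row (chromosome 13, 78469616 to 78492966, minus strand, hg19) held 16 and 11.5 counts in the knockout libraries, or 0.819 and 0.527 CPM, against 660 and 749 counts, or 36.9 and 42.5 CPM, in WT. Both knockout libraries were far under both WT libraries, yet each still held more than 3 counts. The means were 0.673 ± 0.207 CPM in the knockout libraries and 39.7 ± 3.93 CPM in WT (SD, n = 2 each), a log2 fold change of -5.86 (SE 0.17), or 58.0-fold lower. Among 12292 genes that averaged 5 CPM or more in one of the genotypes, 9 had a lower log2 fold change. In bulk RNA such as this, fewer cells that express a gene and less of its RNA per cell cannot be told apart.

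EDNRA (chromosome 4, 148402069 to 148466106, plus strand, hg19), the other receptor, was the most abundant member and was nearly level between the genotypes. It had 175 and 186 CPM in the knockout libraries against 195 and 190.4 CPM in WT. The knockout values lay just under the WT values without overlap, as did 73.1% of all genes tested in one direction or the other. The log2 fold change was -0.09 (SE 0.05) and was not called.

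Compared per length of transcript, the receptor transcripts were almost all EDNRA in the knockout libraries. EDNRB made up 0.432% and 0.263% of the summed receptor level (CPM per kb of the longest GENCODE transcript) in the knockout libraries against 14.9% and 17.2% in WT. The summed level was 42.4 and 44.9 CPM per kb in the knockout libraries against 55.3 and 55.4 CPM per kb in WT, so the receptor transcripts as a whole differed far less than EDNRB did. On the same scale EDNRA lay above 91.1% of 14538 tested genes with a known length, on the mean of all 4 libraries.

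**Figure D2:**
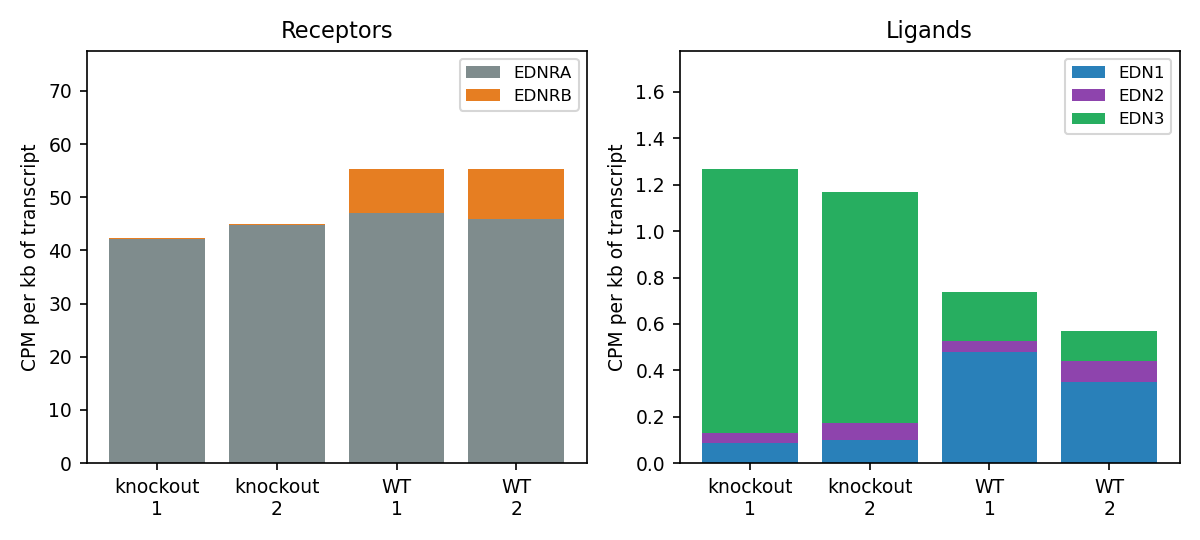
Level per kb of transcript of the receptor genes (left panel) and ligand genes (right panel), stacked, in each knockout library and then each WT library; no error bars, since each bar is 1 library. The EDNRB part of the receptor bar is a thin line of 0.432% and 0.263% in the knockout libraries and 14.9% and 17.2% in WT, and the ligand bar is mostly EDN3 in the knockout libraries and mostly EDN1 in WT. The 2 vertical scales differ.

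Ligand transcripts were scarce in every library, and which ligand led differed between the genotypes, although the order in WT rests on few counts. EDN3 (chromosome 20, 57875499 to 57901047, plus strand, hg19), the precursor of the peptide that acts through EDNRB in crest cells, had 59 and 57.5 counts in the knockout libraries, or 3.02 and 2.64 CPM, against 10 and 6 counts, or 0.559 and 0.340 CPM, in WT. Both knockout libraries were above both WT libraries, with a log2 fold change of 2.64 (SE 0.34), or 6.22-fold higher. The ligand and its B receptor thus differed in opposite directions.

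EDN1 (chromosome 6, 12290529 to 12297427, plus strand, hg19), whose peptide acts mainly through EDNRA in the jaw, had 3.5 and 4.5 counts in the knockout libraries, or 0.179 and 0.206 CPM, against 17.5 and 12.5 counts, or 0.979 and 0.709 CPM, in WT. The groups did not overlap, but the knockout libraries held 8 counts in all, barely over 3 in each. Its log2 fold change was -2.09 (SE 0.54). The call was lost with DESeq2, without knockout replicate 2 and without WT replicate 1, where the log2 fold change was -1.79.

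EDN2 (chromosome 1, 41944446 to 41950344, minus strand, hg19), a ligand known from the ovary and gut, had 1 and 2 counts in the knockout libraries and 1 and 2 counts in WT. It was under the limit of 3 counts in each library, was not tested, and a difference was not detectable at this depth.

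Per length of transcript, EDN3 made up 89.8% and 85.0% of the summed ligand level in the knockout libraries against 28.6% and 22.6% in WT, and EDN1 6.96% and 8.69% in the knockout libraries against 65.3% and 61.4% in WT. In WT the shares rest on 17.5 and 12.5 counts for EDN1, 10 and 6 for EDN3, and 1 and 2 for EDN2. No alternative was run for the ligand shares. The summed ligand level was 1.27 and 1.17 CPM per kb in the knockout libraries against 0.737 and 0.568 CPM per kb in WT. In either genotype the ligand transcripts together stood far under the receptor transcripts on this scale.

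ECE1 (chromosome 1, 21543740 to 21672034, minus strand, hg19), which encodes the main converting enzyme, was modestly lower. It had 43.9 and 49.4 CPM in the knockout libraries against 59.6 and 61.6 CPM in WT, with no overlap. The log2 fold change was -0.38 (SE 0.07), or 1.30-fold lower.

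The row named ECE2 cannot be read as that converting enzyme. It covers 9103 bases (chromosome 3, 183967445 to 183976547, plus strand, hg19) and ends 456 bases before CAMK2N2 in the same table. In GENCODE v29 the gene ECE2 starts 14548 bases beyond CAMK2N2, and the place between ALG3 and CAMK2N2 is held by EEF1AKMT4, a methyltransferase gene that was formerly annotated as a form of ECE2 and spans 9936 bases there. The row had 4.87 and 5.11 CPM in the knockout libraries against 4.42 and 4.76 CPM in WT, a log2 fold change of 0.12 (SE 0.18), and was not called.

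The order of levels per length was the same in both WT libraries, with EDNRA first, then ECE1, EDNRB, EDN1, EDN3 and EDN2, and the WT libraries of neighbours in this order did not overlap. In the knockout libraries the order was EDNRA, ECE1, EDN3, EDNRB, EDN1 and EDN2. There EDNRB, at 0.183 and 0.118 CPM per kb, was close to EDN1, at 0.0882 and 0.101 CPM per kb, and EDN1 close to EDN2, at 0.0413 and 0.0739 CPM per kb, so the order of these last 3 rests on few counts.

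The start of EDNRB is shown because the study concerns an AP-2 factor and EDNRB differed most. RefSeq (GRCh38.p14) gives a pair of start sites, each printed with the bases before it and a short stretch after it on the minus strand, and capitals mark the only match to the AP-2 motif GCCNNNGGC, which reads the same on both strands.
EDNRB chr13:77919633-77919932: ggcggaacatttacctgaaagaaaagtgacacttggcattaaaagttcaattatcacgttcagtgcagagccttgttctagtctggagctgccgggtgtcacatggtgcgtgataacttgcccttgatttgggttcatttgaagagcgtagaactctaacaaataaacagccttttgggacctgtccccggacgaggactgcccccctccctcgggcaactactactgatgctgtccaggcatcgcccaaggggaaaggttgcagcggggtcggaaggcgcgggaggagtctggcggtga
EDNRB chr13:77918782-77919081: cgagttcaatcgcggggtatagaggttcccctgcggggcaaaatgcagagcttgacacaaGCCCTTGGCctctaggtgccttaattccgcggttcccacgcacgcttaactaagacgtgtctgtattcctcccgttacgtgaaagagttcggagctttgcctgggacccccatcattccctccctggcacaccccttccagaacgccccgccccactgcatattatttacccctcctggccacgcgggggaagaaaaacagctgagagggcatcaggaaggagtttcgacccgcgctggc
The second site lies 23351 bases from the end of EDNRB in GENCODE, which is the span of the row in the table, so the row follows a transcript that starts there. Among the 11 windows for the 5 members with an entry, 2 held the motif, this one and that of the ECE1 start site furthest upstream, against 23.2% of all 35116 windows in the table. A match of letters does not show that a factor binds there.

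Genes next to EDNRB did not fall with it. Of the 3 tested genes on its lower side by position, SLAIN1, which encodes a microtubule-associated protein, rose to 65.6 ± 1.83 CPM in the knockout libraries against 38.3 ± 0.578 CPM in WT (log2 fold change 0.78, SE 0.07, adjusted p = 3.98e-07), and MYCBP2-AS1 was not called, at 2.37 CPM in the knockout libraries against 2.04 CPM in WT. MIR3665 lies inside SLAIN1 on the other strand and was called higher, at 1.85 CPM in the knockout libraries against 1.03 CPM in WT, but the labels do not state whether strand was used, its reads cannot be told from those of SLAIN1, and the call was lost in 5 of 11 alternatives. On the other side RNF219-AS1 rose to 15.6 CPM in the knockout libraries against 9.99 CPM in WT (adjusted p = 0.000954) and RNF219, a ubiquitin ligase gene whose row overlaps it, to 33.2 CPM in the knockout libraries against 22.0 CPM in WT (adjusted p = 9.10e-05). RBM26 was at 77.3 CPM in the knockout libraries against 65.3 CPM in WT (adjusted p = 0.0135), a call lost without knockout replicate 1 and without WT replicate 1, with adjusted p up to 0.153. Within 5000 kb of EDNRB, 7 of the other 20 tested genes rose and 3 fell, with log2 fold changes from -0.97 to 0.87. The shares over all genes were 21.9% higher and 22.3% lower. EDNRB-AS1, whose row overlaps 12948 bases of EDNRB on the other strand, had 5 and 5.5 counts in the knockout libraries against 2.5 and 2 counts in WT and was not tested.

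**Figure D3:**
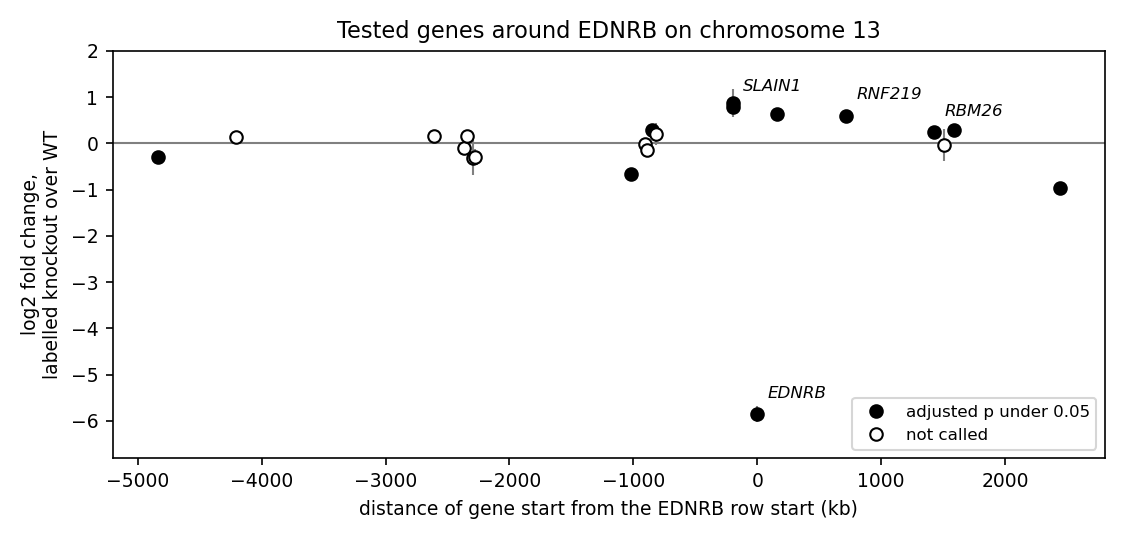
Log2 fold change (labelled knockout over WT, bars are standard errors) of each tested gene by the distance of its start from the EDNRB row in kb; filled points have an adjusted p under 0.05. EDNRB, at -5.86, stands alone, and the other points lie between -0.97 and 0.87.

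Around all 7 members, 16 of the 42 tested neighbours (3 on each side) rose and 5 fell, which is 50.0% called beside 44.2% of all genes. Without WT replicate 1 the number that rose was 10. Those called next to EDN1 were TMEM170B, higher, and PHACTR1, lower. Next to EDN2 FOXO6, a forkhead factor gene, was at 45.6 ± 9.75 CPM in the knockout libraries against 9.83 ± 0.495 CPM in WT (adjusted p = 1.03e-05), SCMH1 and RIMKLA were higher, and HIVEP3 was lower. SLMO2 and FAM217B were higher next to EDN3, TTC29 higher and TMEM184C lower next to EDNRA, and EIF4G3 and RAP1GAP higher next to ECE1. Next to the row named ECE2, PSMD2 and EIF4G1 were higher and ABCF3 and VWA5B2 lower. TTC29 and RIMKLA passed the filter on low counts through the knockout libraries and VWA5B2 through the WT libraries, where each is high. Of 11 alternatives, VWA5B2 lost its call in 6 (adjusted p up to 0.251), among them each left-out library. FAM217B lost its call in 5 (up to 0.169), SCMH1 in 4 (up to 0.110), and RIMKLA (up to 0.180) and TTC29 (up to 0.0964) in 3 each, all of them with DESeq2 and without WT replicate 1. RAP1GAP lost its call without knockout replicate 2 and without WT replicate 2 (up to 0.0934), EIF4G1 without WT replicate 1 (0.123) and PSMD2 without WT replicate 2 (0.0632).

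Other genes of endothelin processing were mostly lower. Of 13 peptidase genes listed, 10 were tested, 6 fell, 1 rose and 3 were not called, beside 22.3% lower and 21.9% higher over all genes. Their median log2 fold change was -0.43 beside 0.00 for all genes. PCSK5, a proprotein convertase gene, fell to 7.84 and 8.11 CPM in the knockout libraries against 125 and 137 CPM in WT (log2 fold change -4.03, SE 0.08, adjusted p = 1.54e-13). FURIN, the convertase best known for cutting endothelin precursors, fell to 118 and 120.4 CPM in the knockout libraries against 197 and 203 CPM in WT (log2 fold change -0.75, adjusted p = 2.97e-08). MME, or neprilysin, a relative of ECE1 that breaks peptides down, fell to 64.1 and 70.2 CPM in the knockout libraries against 172 and 174 CPM in WT (adjusted p = 2.70e-10). Each of these 3 had both knockout libraries well under both WT libraries. The exception was ECEL1, an ECE1-like metallopeptidase of neurons, at 15.8 and 10.7 CPM in the knockout libraries against 1.01 and 0.709 CPM in WT (log2 fold change 3.96, SE 0.27, adjusted p = 2.21e-07), a value left uncertain by the pseudogene copy ECEL1P2, whose counts ran the other way. The other 3 that fell, PCSK7, CTSA and MMP2, changed by less, and MMP2 lost its call without knockout replicate 1 and without WT replicate 1, with adjusted p up to 0.0576.

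Receptor coupling genes moved both ways. Of 27 listed and tested, 12 fell, 8 rose and 7 were not called, with a median log2 fold change of -0.06. Over all genes tested, 22.3% fell and 21.9% rose. With DESeq2 5 rose and 10 fell, and with the replicate block 8 rose and 9 fell. Both numbers were also smaller with each library left out. Among those that fell, GRK2 lost its call in 7 of 11 alternatives, GNA11 in 5 and ITPR2 in 3. ITPR3, an IP3 receptor gene that releases calcium from the endoplasmic reticulum, fell to 9.55 and 10.8 CPM in the knockout libraries against 46.5 and 47.9 CPM in WT (adjusted p = 2.04e-10). Phospholipase C beta genes split, with PLCB2 lower at 4.63 and 4.40 CPM in the knockout libraries against 15.6 and 18.0 CPM in WT (adjusted p = 8.02e-08), and PLCB1 higher at 9.45 and 8.94 CPM in the knockout libraries against 3.36 and 3.91 CPM in WT (adjusted p = 1.52e-05). RGS4, which turns off Gq and Gi proteins, fell to 2.84 and 3.21 CPM in the knockout libraries against 11.2 and 10.5 CPM in WT (adjusted p = 5.13e-07). GNAQ, the gene of the Gq alpha subunit, was at 92.7 and 90.9 CPM in the knockout libraries against 78.2 and 83.7 CPM in WT, a call lost in 4 of 11 alternatives.

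EDNRA itself was nearly level, and its ligand gene EDN1 was lower on few counts. Genes known in the mouse jaw as dependent on or cooperating with the endothelin A receptor were mostly lower. Of 10 listed, 8 were tested, 5 fell, 2 rose and 1 was not called, beside 22.3% lower and 21.9% higher over all genes. The median log2 fold change of the 8 was -1.65. MSX1, a homeobox factor gene, fell to 7.94 and 8.34 CPM in the knockout libraries against 91.8 and 115 CPM in WT (adjusted p = 3.63e-09). ALX4 fell to 1.82 and 1.99 CPM in the knockout libraries against 15.7 and 14.9 CPM in WT (adjusted p = 3.20e-09). HAND1, a basic helix-loop-helix factor gene, fell to 76.9 and 71.8 CPM in the knockout libraries against 323 and 353 CPM in WT (adjusted p = 2.79e-12), and DLX3 to 14.6 and 14.0 CPM in the knockout libraries against 44.2 and 49.8 CPM in WT (adjusted p = 1.96e-09). DLX5 fell as well. HAND2, at 107 and 116 CPM in the knockout libraries against 82.1 and 82.0 CPM in WT (adjusted p = 3.28e-05), and MEF2C, at 9.14 ± 0.104 CPM in the knockout libraries against 4.64 ± 0.910 CPM in WT (SD, n = 2 each; edgeR adjusted p = 0.000298), rose. DLX3 and DLX5 are also on the list of non-neural ectoderm markers, of which 9 of 13 fell and 0 rose, and whether the jaw genes move with endothelin signalling or with those markers was not tested.

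Of 18 listed genes of the lineages that need EDNRB, 15 were tested, 9 rose, 3 fell and 3 were not called, beside 21.9% higher and 22.3% lower over all genes. Their median log2 fold change was 0.45, beside 0.00 over all genes. SOX10, PAX3, MITF, SNAI2, KIT and ERBB3, 6 of the 18, are also on the lists of crest or melanocyte markers. Too low to test were SOX10, PAX3 and RET. RET was at 0.435 and 0.0917 CPM in the knockout libraries against 0.140 and 0.227 CPM in WT. GDNF, the ligand that guides enteric crest cells, was at 1.31 and 1.97 CPM in the knockout libraries against 0.140 and 0.142 CPM in WT, or 2.5 counts in each WT library (adjusted p = 4.15e-05). NRG1, which encodes neuregulin, was at 1.56 and 1.65 CPM in the knockout libraries against 0.280 and 0.567 CPM in WT (adjusted p = 0.00145). Both knockout libraries were above both WT libraries for GDNF and NRG1. GDNF passed the filter on low counts through the knockout libraries, where it is high, and NRG1 with their help. The adjusted p-values of these genes are therefore not read as support. MITF, the melanocyte factor gene, KITLG and L1CAM were those that fell.

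Markers of the cell types in which EDNRB is known moved with it in part. Each count of markers below stands beside 21.9% higher and 22.3% lower over all genes tested. The summed level of 12 neural crest markers was 195 and 201 CPM in the knockout libraries against 449.5 and 471 CPM in WT, and 4 of the 9 tested fell and 0 rose. TFAP2B, a paralog of TFAP2A, took 45.7 and 40.5 CPM of this in the knockout libraries against 261 and 287 CPM in WT. The defining crest markers SOX10, FOXD3 and PAX3 were at 0 to 0.205 CPM in every library and were not tested. PAX7, among the crest markers that fell, passed the filter on low counts with the help of the WT libraries, where it is high. Amnion and trophoblast markers, 8 genes, summed to 115 and 75.3 CPM in the knockout libraries against 1495.0 and 1588.4 CPM in WT, with 5 of the 6 tested lower and 1 higher. GABRP made up 78.3 and 47.0 CPM of this in the knockout libraries against 1125.9 and 1207.3 CPM in WT. Its call was lost without either WT replicate, though its log2 fold change stayed between -4.63 and -3.90 under all alternatives. PGF, the marker called higher, lost its call with DESeq2, without knockout replicate 1 and without WT replicate 1. Among the amnion and trophoblast markers called lower, CGA and CYP19A1 passed the filter on low counts through the WT libraries, where each is high. Their calls are therefore not read as support. The part of the crest, amnion and trophoblast markers in the EDNRB difference was not tested. Melanocyte markers, 7 genes, summed to 84.7 and 80.0 CPM in the knockout libraries against 56.1 and 50.9 CPM in WT, with TYR at 0 and 2 of the 4 tested higher and 1 lower. Most of that difference was TYRP1, at 26.5 CPM in the knockout libraries against 1.39 CPM in WT, while MITF was lower, at 3.91 CPM in the knockout libraries against 6.43 CPM in WT, and PMEL was not called, at 20.9 CPM in the knockout libraries against 22.7 CPM in WT. Endothelium is the best known source of EDN1, and its 12 markers summed to 39.2 and 36.8 CPM in the knockout libraries against 62.2 and 59.4 CPM in WT, with 4 of the 6 tested lower, 1 higher and PECAM1 at 0 in all libraries. Those called lower were CDH5 (the gene of VE-cadherin), KDR, VWF and EGFL7, the last of which lost its call with DESeq2. CDH5 was at 0.333 and 0.596 CPM in the knockout libraries against 11.0 and 12.8 CPM in WT. It passed the filter on low counts with the help of the WT libraries, where it is high. KDR averaged 2.28 CPM in the knockout libraries against 16.4 CPM in WT. The VEGF receptor gene FLT1, called higher, averaged 11.9 CPM in the knockout libraries against 2.31 CPM in WT. TIE1, CLDN5, EMCN, ESAM and ERG were under 1 CPM in every library and were not tested. TEK, an angiopoietin receptor gene, was not called, at 14.1 CPM in the knockout libraries against 13.4 CPM in WT. Their part in the EDN1 difference was not tested. Markers of mesenchyme and smooth muscle, 11 genes, summed to 4561.7 and 5016.3 CPM in the knockout libraries against 5146.8 and 5171.1 CPM in WT, with 6 of the 11 tested lower and 0 higher. Pluripotency markers, 3 genes, summed to 52.4 and 32.4 CPM in the knockout libraries against 12.6 and 11.6 CPM in WT, with 1 of the 2 tested higher. SOX2, which neural cells also express, made up 51.8 and 31.4 CPM of this sum in the knockout libraries against 11.7 and 10.9 CPM in WT. SOX2 was no longer called with no filter on low counts or without either WT replicate (adjusted p up to 0.248). POU5F1 was not called, at 0.755 CPM in the knockout libraries against 0.717 CPM in WT.

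Transcription factor genes known to act on the EDN1 promoter in other cells were mostly not called, while 44.2% of all genes tested were called. Of 10 listed, 9 were tested, 1 rose and 1 fell, with a median log2 fold change of -0.00, and 2 rose without knockout replicate 1. GATA4 rose to 197 and 219 CPM in the knockout libraries against 107 and 86.6 CPM in WT (adjusted p = 0.000193), and FOXO1 fell to 52.9 and 50.6 CPM in the knockout libraries against 67.4 and 72.5 CPM in WT (adjusted p = 0.000114).

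**Figure D4:**
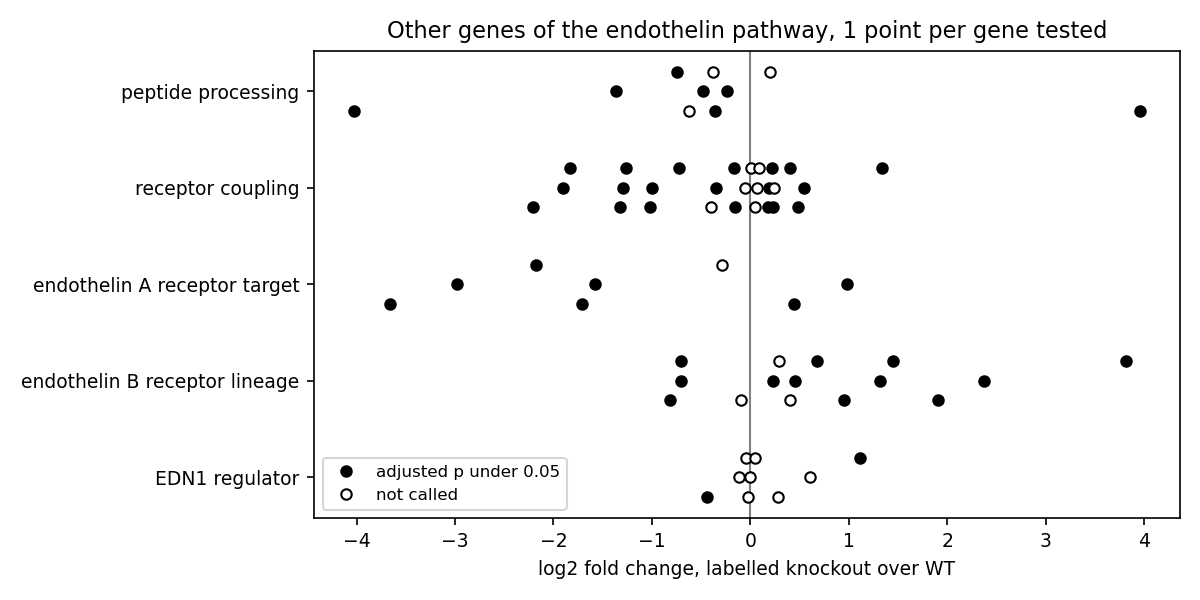
Log2 fold change (labelled knockout over WT) of every tested gene on the 5 pathway lists, 1 point per gene; filled points have an adjusted p under 0.05 over all genes and open points do not. The jaw genes of the endothelin A receptor reach down to MSX1, at -3.66, and GDNF is the highest point among the lineage genes of the endothelin B receptor.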

How the data were processed

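The authors deposited 1 table of estimated counts per gene, unscaled, in steps of 0.5, and 37.0% of its values were not whole. Per the submitters' processing notes TopHat, HOMER and DESeq2 were used, with build hg38. However, 4.35% of 22829 matched genes began within 2000 bases of their GRCh38 position, so coordinates of the table are printed as hg19. Annotation, strand use and counting settings are not stated in the labels or the table. Groups follow the genotype label.

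Estimated counts were rounded, filtered with filterByExpr (15643 genes kept), scaled with TMM factors and tested with edgeR 4.0.16 (glmQLFit, robust, and glmQLFTest; R 4.3.3) on genotype alone, with Benjamini-Hochberg adjustment over all genes and a threshold of 0.05. A standard error is the log2 fold change over the square root of F. The fit left 2 residual degrees of freedom, gave a common coefficient of biological variation of 0.0577, and was tested on simulated data. Lengths and positions in GRCh38 came from GENCODE v29, and promoter windows from RefSeq. The table has no length column, so the longest GENCODE transcript was used where a length from the table had been planned.

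The members, gene lists and tests were chosen with earlier results of these data known. Named genes were all members, for each list up to 4 of the called genes, those with the largest change (or, under 2 calls, the 2 most abundant), the 3 nearest tested genes on each side of EDNRB and those called beside other members, and for each member the 3 genes (averaging 5 CPM or more) with the closest centred log2 CPM profile, at a prior count of 2. Some genes that this rule names are not reported here. HAND2, MEF2C, DLX5, GNAQ and other genes outside this rule were named after their values were seen. Alternatives were RLE and upper-quartile factors, no low-count filter, DESeq2 1.42.0, limma-voom (limma 3.58.1), counts cut down to whole numbers, each library left out, and a replicate block.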

Additional observations from a re-analysis of the deposited data

How the results depend on the processing

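Each of the 6 members tested kept the sign of its log2 fold change under all 11 alternatives, with ranges of -6.15 to -5.58 for EDNRB, 2.33 to 3.03 for EDN3, -2.34 to -1.79 for EDN1, -0.46 to -0.29 for ECE1, -0.13 to -0.05 for EDNRA and 0.07 to 0.18 for the row named ECE2. The EDNRB share of the receptor level in WT, 14.9% and 17.2% per length of the longest transcript, averaged 13.5% per length of all exons, a setting chosen after seeing the data; the difference in length between the settings sets this shift. The number of all genes called was 6919, between 5232 and 5834 with each library left out, and 4929 with DESeq2. Leaving out a library leaves 1 sample in an arm, which is then assumed to vary like the other group. Replicate numbers are shared by the genotypes, but the labels do not say that they pair libraries, and the deviations of same-numbered libraries from their group means correlated at -0.0501 across genes. With the replicate block 6204 genes were called, and of the named lists and neighbours the calls of GNA11, GRK2, ITPR2, MIR3665, FAM217B and VWA5B2 were lost, while the marker ETS1 was called in addition. The share per length given in the table was not run, since the table has no length. Depth limits EDN1, with 8 counts over the knockout libraries, and EDN2.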

Other observations

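By Euclidean distance of centred log2 CPM over the 4 libraries, a description over few points that share the same libraries, the profile closest to EDNRB was that of ANKRD33B, at 4.74 and 3.87 CPM in the knockout libraries against 221 and 255 CPM in WT (distance 0.176). Next came EPAS1, which encodes the hypoxia-inducible factor HIF-2 alpha, at 20.6 and 13.5 CPM in the knockout libraries against 661 and 770.2 CPM in WT (0.275), and LMX1B, a LIM-homeodomain factor gene, averaging 1.39 CPM in the knockout libraries and 85.0 CPM in WT (0.345). None of these lies on chromosome 13. Closest to EDN3 were RARRES2, the chemerin gene, at 88.4 and 77.1 CPM in the knockout libraries against 15.2 and 12.7 CPM in WT (0.259), SHD (0.309) and the VEGF receptor gene FLT1 (0.330). Closest to EDN1 were GUSBP4 (0.135), SLFN11 (0.181) and PRSS22 (0.205). For members that differed little the closest were TM9SF2, NUDT22 and XAB2 for EDNRA, PPAPDC2, UBA6-AS1 and DNAJC6 for ECE1, and XRCC4, ELP2 and DCPS for the row named ECE2.

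ECEL1 and its pseudogene copy ECEL1P2 on chromosome 2 ran in opposite directions. ECEL1 had 309 and 233.5 counts in the knockout libraries against 18 and 12.5 counts in WT, while ECEL1P2 had 1.5 and 1 counts in the knockout libraries against 16.5 and 27.5 counts in WT. How reads that match both copies were counted is not stated, so the WT level of ECEL1 is uncertain.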
